A study of Homo sapiens with 24 samples.

Results

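Titin (TTN) and nebulin (NEB) are the giant structural proteins of the striated muscle sarcomere, and their genes were examined in the RD cell line, a line of fusion-negative rhabdomyosarcoma, which is a childhood cancer related to skeletal muscle. Members were all chromatin immunoprecipitation sequencing (ChIP-seq) peaks that overlapped a window around each gene on chromosome 2 in build hg19. The TTN window ran from 179340001 to 179720000 (380 kb) and the NEB window from 152290001 to 152640000 (350 kb). Of 564552 peaks in the 14 peak lists, 107 were members, 37 at TTN and 70 at NEB. The groups were TWIST2 knockdown (labelled TWIST2 KD) and control RD cells for H3K27ac, MYOD and SMARCA4, and RD cells with 3xTy1-TWIST2 for the Ty1 antibody, with 2 libraries each. SMARCA4 libraries carry the label RD-2 and all others RD-1. All groups are the same cell line, and the labels do not give the knockdown method, the TWIST2 left after it, the origin of the tagged TWIST2 or whether replicates were separate cultures. Exact permutation p-values therefore speak only for these libraries, and they do not measure their spread. With 2 against 2 the smallest two-sided p is 0.333, which any full separation of the groups gives, so no comparison below could pass 0.05.

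Titin is a molecular spring that reaches from the Z-disc to the M-band and sets the passive tension of muscle. Nebulin lines the thin filament of skeletal muscle and helps to set its length. Both are genes of late muscle differentiation, a programme driven by MYOD, which binds E-boxes (CANNTG) together with E proteins. H3K27ac marks active promoters and enhancers, SMARCA4 (also BRG1) drives SWI/SNF chromatin remodelling as its ATPase, and TWIST2 is a basic helix-loop-helix factor that also binds E-boxes.

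The sequences before each gene's start are shown because they carry the E-boxes of the 2 genes side by side. Each runs from 250 bases before to 50 after the RefSeq start, on the minus strand of build GRCh38.p14, at chr2:178807374-178807673 for TTN and chr2:151734427-151734726 for NEB. Capitals mark CANNTG, and a match on one strand is also a match on the other. These coordinates are not in the build of the peaks, and no peak was placed on them.
TTN: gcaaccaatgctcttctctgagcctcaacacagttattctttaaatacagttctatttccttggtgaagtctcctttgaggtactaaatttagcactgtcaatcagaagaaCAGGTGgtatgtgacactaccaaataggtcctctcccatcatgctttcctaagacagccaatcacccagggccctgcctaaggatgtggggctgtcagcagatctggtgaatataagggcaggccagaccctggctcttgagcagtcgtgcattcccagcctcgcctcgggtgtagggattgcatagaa
NEB: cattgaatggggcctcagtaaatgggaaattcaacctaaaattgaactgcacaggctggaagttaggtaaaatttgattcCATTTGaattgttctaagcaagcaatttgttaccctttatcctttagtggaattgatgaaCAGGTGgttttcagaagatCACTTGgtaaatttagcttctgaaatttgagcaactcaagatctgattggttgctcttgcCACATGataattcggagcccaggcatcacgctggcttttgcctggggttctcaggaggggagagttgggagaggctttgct
The TTN promoter held 1 E-box and the NEB promoter 4, and 68.9% of 27305 RefSeq promoters of this length held at least 1. The form CAGGTG stood in both, at -139 from the TTN start and -110 from the NEB start, and 20.6% of promoters held it or its reverse complement CACCTG. The longest string shared by both promoters was GAACAGGTGGT, which has this E-box at its core and was found on either strand in 13 of the 27305 promoters. It was picked out after the sequences were compared. CAGCTG and CATATG were in neither promoter.

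The peak lists differed in length. The KD lists held 48022 and 46822 H3K27ac peaks, against 36679 and 34932 in control, a ratio of means of 1.32. MYOD lists held 52510 and 48003 peaks in KD and 44974 and 43381 in control, a ratio of 1.14. SMARCA4 lists held 12518 and 14676 peaks in KD and 11835 and 25013 in control, from 36095336 to 46690705 tags a library, and the Ty1 lists held 74087 and 71100. No depth is known for libraries other than those of SMARCA4, so the part of depth in list length cannot be told apart from that of the knockdown. A place without a peak is one that was not listed. Peaks of the 4 libraries of an antibody that overlapped by at least 1 bp were merged into regions. A region is called KD-only if both KD libraries and no control library had a peak in it, and control-only in the reverse case.

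At NEB, H3K27ac was listed at places along the window where neither control library had a peak. The KD libraries had 9 and 7 H3K27ac peaks in the window, against 3 and 3 in control (8 ± 1.41 and 3 ± 0, SD, n = 2 each, ratio 2.67, exact two-sided permutation p = 0.333). The groups did not overlap. Peaks covered 12563 and 9687 bp in KD, against 4802 and 4687 bp in control. Over all of chromosome 2 the same KD over control ratio of peak numbers was 1.35. Per Mb, NEB had 25.7 and 20 peaks in KD and 8.57 and 8.57 in control, whereas the whole chromosome had 16.5 and 15.9 in KD, against 12.3 and 11.6 in control. NEB was thus denser than its chromosome in both KD libraries and sparser in both control libraries. Scaled to list length, NEB held 1.87 and 1.495 peaks per 10000 of the list in KD and 0.818 and 0.859 in control, which again did not overlap (ratio 2.01, exact permutation p = 0.333, n = 2 each). Leaving out any 1 library gave 4 to 6 more peaks in KD. With lists cut to the same length from the top, however, the means were 3.5 peaks in KD and 3 in control, a difference of 0.5, so its size depended on how many peaks of each list were taken.

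In the TTN window the H3K27ac lists had the same 2 places in every library, both towards its low end. There were 2 peaks in each KD library and 2 in each control library, and both regions were found in all 4. Per 10000 of the list these were 0.416 and 0.427 in KD and 0.545 and 0.573 in control, with the KD values below the control values. The NEB count minus the TTN count of the same library was 7 and 5 in KD and 1 and 1 in control. This difference did not overlap between groups (exact permutation p = 0.333, n = 2 each). As the TTN count was the same in every library, it only restates the NEB counts and is no separate result.

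**Figure D1:**
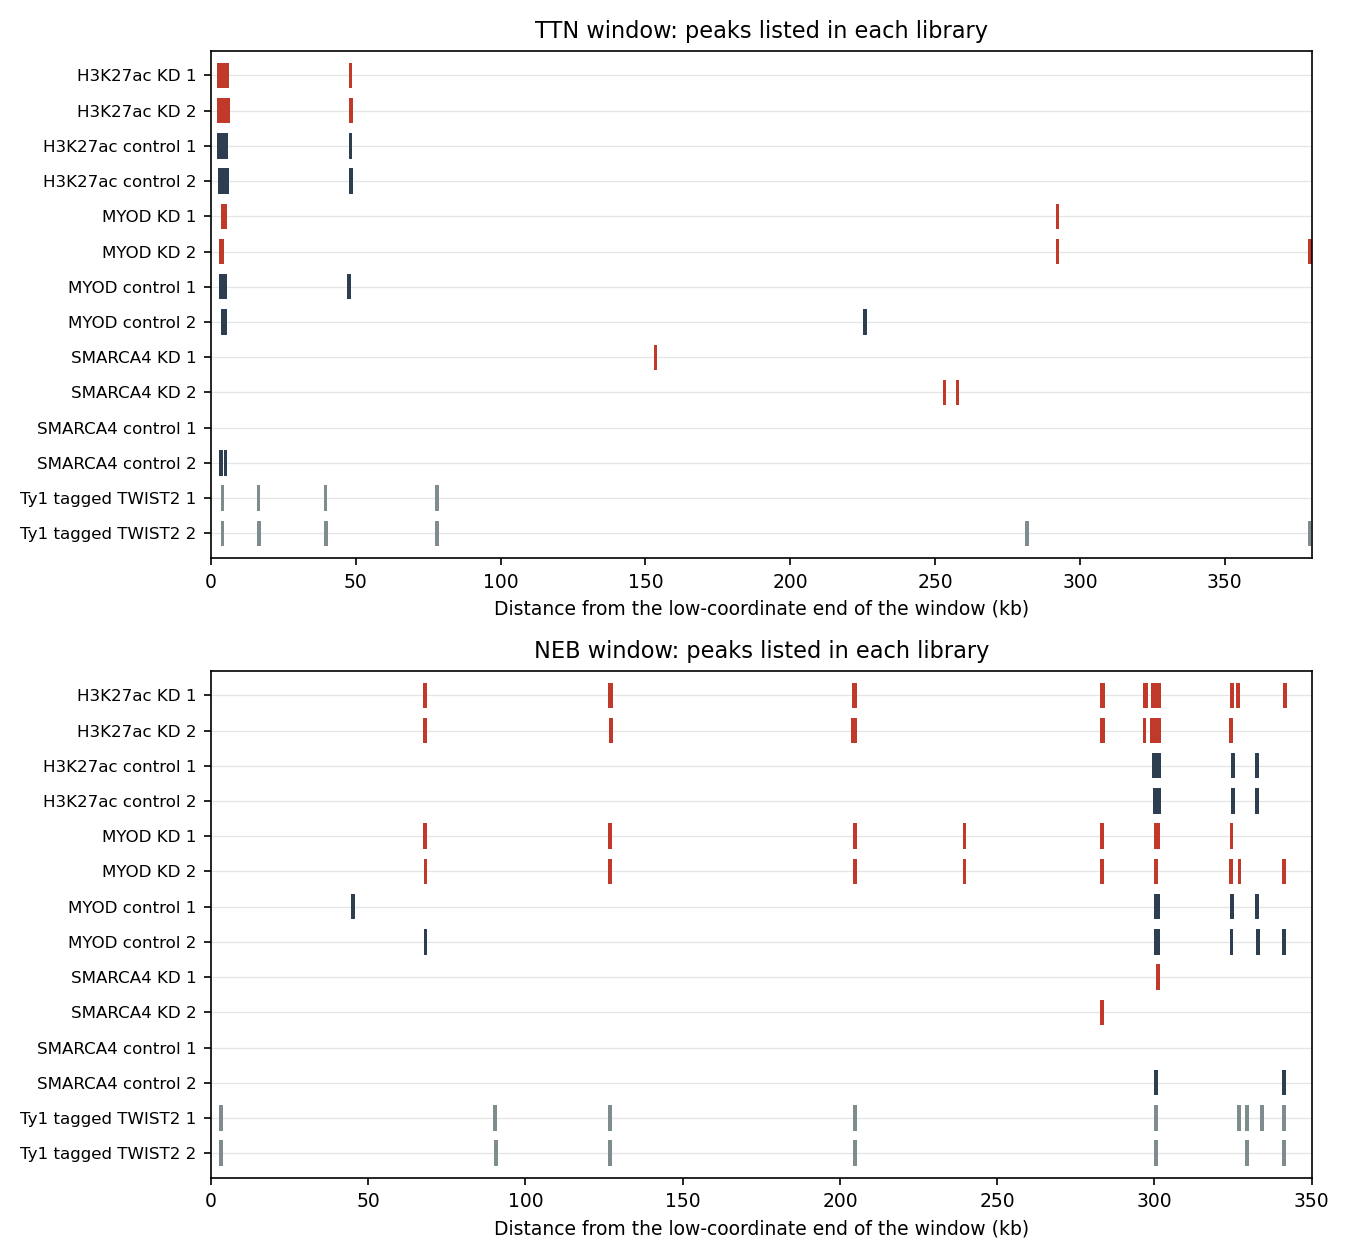
Peaks of all 14 libraries along the TTN window (upper panel) and the NEB window (lower panel), by distance in kb from the low-coordinate end, with KD in red, control in dark blue and tagged TWIST2 in grey (peaks under 1.2 kb are drawn 1.2 kb wide). Red H3K27ac marks between 68 and 297 kb of the NEB window have no dark blue counterpart, whereas the 2 H3K27ac places at TTN are in every library.

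**Figure D2:**
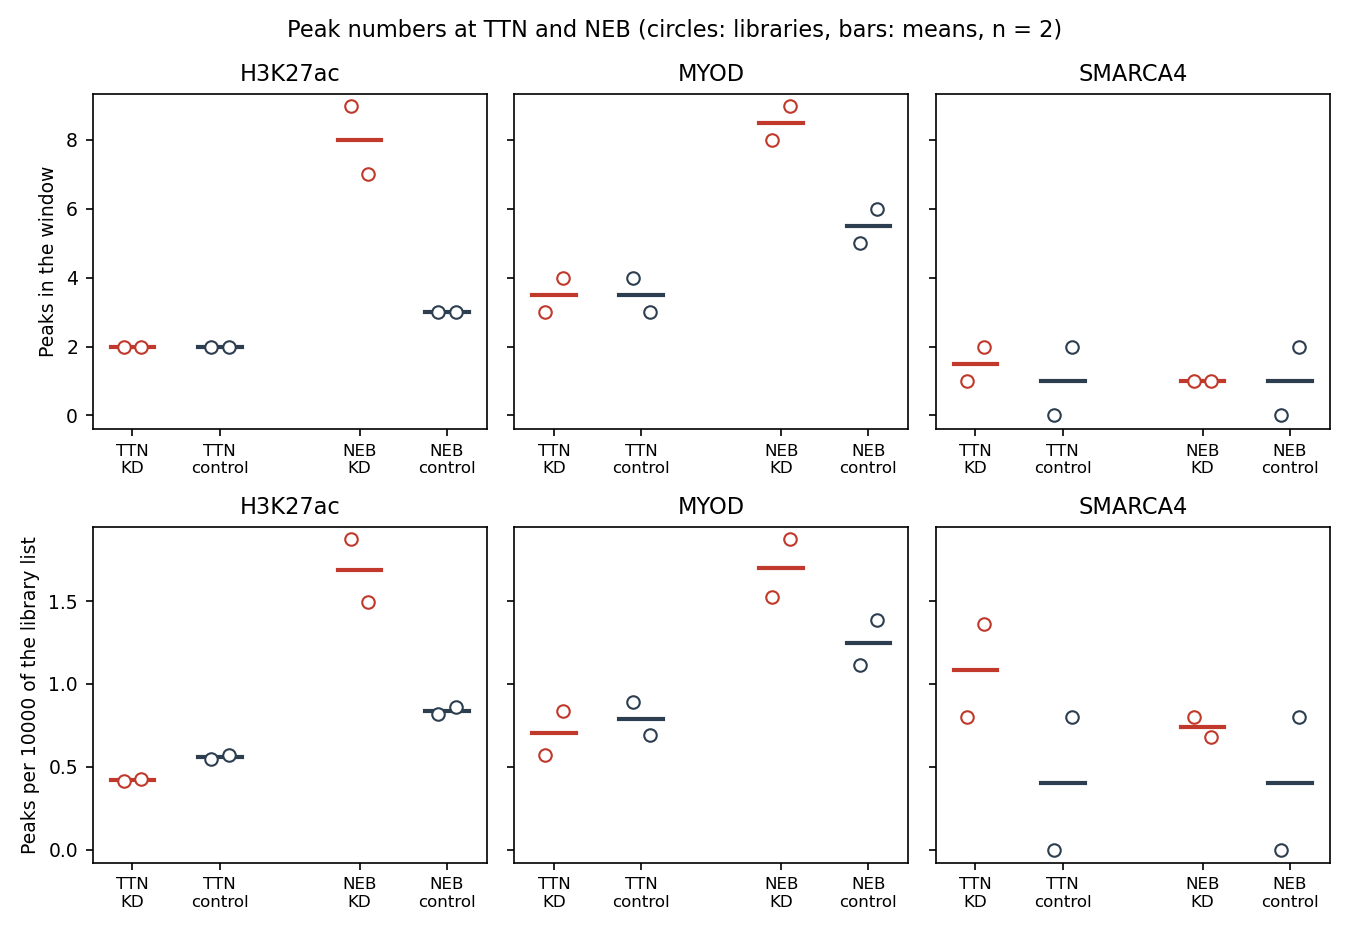
Number of peaks per library in each window (upper row) and the same per 10000 peaks of that library's list (lower row), with circles for libraries and bars for means (n = 2). For H3K27ac and MYOD at NEB both KD circles lie above both control circles on either scale, for H3K27ac at TTN they lie below them per 10000 list peaks, and the other pairs overlap.

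Both genes are read towards lower coordinates, so their starts lie towards the high end of each window and their ends towards the low end. No annotation of build hg19 was used, so regions are named by position and not as promoters, exons or introns. The words at TTN and at NEB mean inside the window, which can hold parts of other genes. Which gene a region belongs to was not tested.

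In the control libraries, the low 299 kb of the NEB window (85.5% of it) had no H3K27ac peak, from 152290001 to 152589356. In the KD libraries the longest stretch without a peak was 77.0 kb, and 5 KD-only regions lay within the part that was empty in control. They made up 5 of the 10 merged H3K27ac regions at NEB, against 19.8% of all 55905 regions in the genome. Control-only regions numbered 1 of 10, against 4.21%, and regions in all 4 libraries 2 of 10, against 49.1%. The other 2 were in KD replicate 1 alone. At TTN none of 2 regions was KD-only and none control-only.

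The first KD-only H3K27ac region from the low end lay at 152357661 to 152358573, with peaks of 913 and 755 bp. It held a MYOD region listed in both KD libraries and in control replicate 2, and no TWIST2 region. The next, at 152416262 to 152417700, had peaks of 1439 and 501 bp and overlapped both a KD-only MYOD region and TWIST2. The widest of the 5, at 152493609 to 152495565, had peaks of 1787 and 1957 bp and likewise overlapped KD-only MYOD and TWIST2. The region at 152572526 to 152574250 had peaks of 1345 and 1725 bp and held a KD-only MYOD region without TWIST2. The region at 152586211 to 152587892, with peaks of 1682 and 627 bp, held neither. Of these regions, 3 of 5 held a KD-only MYOD region, against 21.3% of all KD-only H3K27ac regions, 4 of 5 a MYOD region of any class, against 67.3%, and 2 of 5 a TWIST2 region, against 31.5%. With 5 regions these shares are coarse.

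All 10 peaks of these 5 regions stood in the lower part of their own lists, between 54.5% and 93.5% from the top. The order of these lists is not explained in the files. In the top 50% of each list, NEB held 1 H3K27ac peak in every library, and no region was KD-only. With lists cut to the length of the shortest, 34932 peaks, 2 regions were KD-only and 2 control-only. The regions at 152493609 and 152572526 were the KD-only ones. The second control-only region was then the one at 152613982, whose KD peaks stood at positions 40020 and 42009 of their lists, beyond that length.

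The widest H3K27ac peak at NEB was found in all libraries. The region at 152588675 to 152592128 had peaks 3159 and 3454 bp wide in KD, against 2670 and 2658 bp in control. The ratio of mean widths was 1.24, with no overlap between the groups. Both KD widths exceeded both control widths in 45.4% of the 27442 regions found in all 4 libraries over the genome. The upper quartile of the width ratio over those regions was 1.29, so neither value is unusual. The NEB region stood at 9.37% and 9.07% from the top of the KD lists and 15.1% and 15.0% from the top of the control lists. The second constant region, at 152613982 to 152615422, had peaks 945 and 668 bp wide in KD, against 888 and 1104 bp in control, which overlapped. The control-only region lay close by, at 152621884 to 152623127, with peaks of 1244 and 925 bp. It held a MYOD peak of each control library at places that did not overlap each other, and 64.2% of all control-only H3K27ac regions held a MYOD region. No KD library had a MYOD peak there.

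Near the low end of the TTN window, the region at 179342110 to 179346433 had H3K27ac peaks 4136 and 4310 bp wide in KD. In control they were 3812 and 3665 bp wide, a ratio of 1.13. The region at 179387823 to 179388852 had widths of 892 and 1024 bp in KD, against 766 and 675 bp in control, a ratio of 1.33. In both regions each KD peak was wider than each control peak. Over all 27442 constant H3K27ac regions this was so in 45.4%, and the reverse in 29.8%, so such an order at single regions is common. The median ratio of widths over these regions was 1.05 (interquartile range 0.883 to 1.29). Together the TTN peaks covered 5028 and 5334 bp in KD, against 4578 and 4340 bp in control (ratio 1.16, exact permutation p = 0.333, n = 2 each). Scaled to 1000000 bases covered by the whole list the order turned, with 48.7 bases in KD and 53.4 in control. From 179388853 to the high end of the window, 331 kb or 87.1% of it, no library had an H3K27ac peak.

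**Figure D3:**
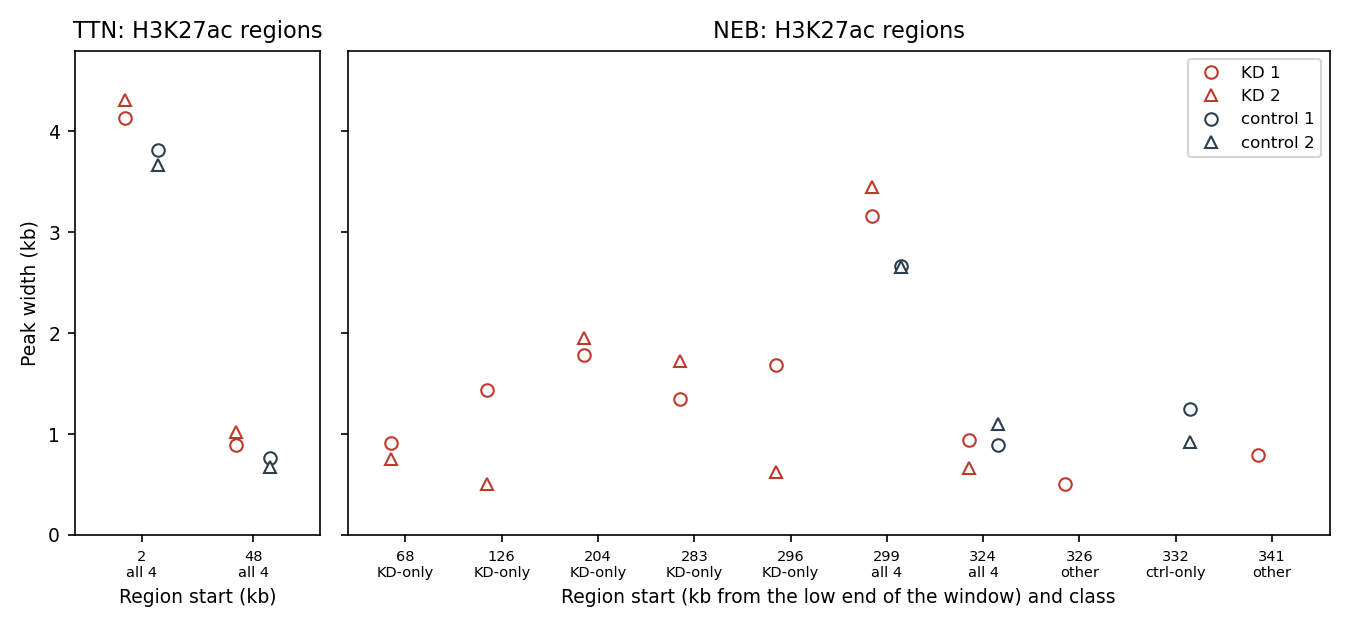
Width in kb of the H3K27ac peaks of each merged region, by the region's start in kb from the low end of the window, with circles for replicate 1 and triangles for replicate 2 (no symbol, no peak). The 5 KD-only regions at NEB carry peaks of 501 to 1957 bp, and the widest peaks of both windows, from 2658 to 4310 bp, are in all 4 libraries.

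MYOD peaks at NEB were also more numerous in both KD libraries. They had 8 and 9 peaks there, against 5 and 6 in control (8.5 ± 0.707 and 5.5 ± 0.707, SD, n = 2 each, ratio 1.55, exact permutation p = 0.333), and the groups did not overlap. Over all of chromosome 2 the KD over control ratio of MYOD peak numbers was 1.21. Per Mb, NEB had 22.9 and 25.7 MYOD peaks in KD, against 19.6 and 17.6 over the chromosome. In control it had 14.3 and 17.1, against 15.8 and 15.1, so control replicate 2 was also denser at NEB than over its chromosome. Per 10000 of the list the values were 1.52 and 1.87 in KD and 1.11 and 1.38 in control. With lists of the same length the means were 8.5 in KD and 5 in control. All MYOD peaks of a library are of equal width, 213 and 225 bp for KD, against 159 and 179 bp for control. The KD-only count was 4 also with all peaks set to 200 bp. TTN had 3 and 4 MYOD peaks in KD, against 4 and 3 in control, which overlapped. In the top 50% of the lists NEB held 4 and 1 MYOD peaks in KD and 3 and 3 in control, so the order seen over the whole lists rested on peaks lower down.

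Of 13 merged MYOD regions at NEB, 4 were KD-only, against 9.1% of all 88541 regions, 0 control-only, against 5.41%, and 2 in all 4 libraries, against 20.3%. The KD-only regions lay at 152416816 to 152417055, 152494663 to 152494908, 152529485 to 152529714 and 152573216 to 152573492. All except the region at 152529485 lay in a KD-only H3K27ac region, and that one had no H3K27ac peak in any library. Over the genome 29.8% of KD-only MYOD regions overlapped a KD-only H3K27ac region. H3K27ac of any class overlapped the same 3 of 4 at NEB, against 67.3% of all KD-only MYOD regions. TWIST2 overlapped 2 of the 4, against 25.0% of all KD-only MYOD regions. In control, the 232 kb between the MYOD regions at 152358039 and 152590357 had no MYOD peak. The peak at 152494696 stood at 11.2% from the top of the list of KD replicate 1, the highest of the 8 peaks in these regions, but its partner in KD replicate 2 stood at 61.7%. The remaining 6 lay between 56.5% and 78.3%. In KD replicate 2 the peaks at 152358086, 152416831 and 152573216 were neighbours in the list, at positions 35936, 35937 and 35938, in genomic order. So were those at 152358039 and 152529502 in KD replicate 1, at positions 29641 and 29642. In Ty1 replicate 2, the peaks at 179379559 and 179719177 stood at positions 63464 and 63465. Places in these lists are therefore coarse.

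Within the NEB window, the MYOD region highest in each of the 4 lists was constant. It lay at 152590357 to 152590592, inside the widest H3K27ac region of the NEB window, at 5.71% and 9.35% from the top of the KD lists and 2.23% and 2.26% from the top of the control lists. A second MYOD region in the same H3K27ac region, at 152590917 to 152591149, was listed in KD replicate 1 and both controls. The other constant region, at 152614320 to 152614618, lay in the second constant H3K27ac region. Over the genome 90.8% of constant MYOD regions overlapped H3K27ac and 46.6% TWIST2, and 94.2% and 52.0% of constant H3K27ac regions overlapped MYOD and TWIST2. At NEB 2 of 2 constant MYOD regions lay on H3K27ac and 1 of 2 on TWIST2.

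In the TTN window, MYOD clustered in the wide H3K27ac region at the low end, away from the side of the gene's start. Of 8 merged MYOD regions in the window, 4 lay there, and the region at 179343795 to 179344056 was in all 4 libraries, at 19.7% and 7.25% from the top of the KD lists and 17.7% and 13.0% in control. The region at 179344878 to 179345124 was listed in KD replicate 1 and both controls. The 1 KD-only region, at 179632131 to 179632355, had no H3K27ac, TWIST2 or SMARCA4 peak and stood at 66.9% and 79.2% from the top, and 0 of 8 were control-only. The 1 of 8 KD-only, 0 of 8 control-only and 1 of 8 constant regions stood against 9.1%, 5.41% and 20.3% of all MYOD regions, so the KD-only count was near the background. Without KD replicate 1 the KD-only regions numbered 3. The other 5 regions were each found in 1 library.

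**Figure D4:**
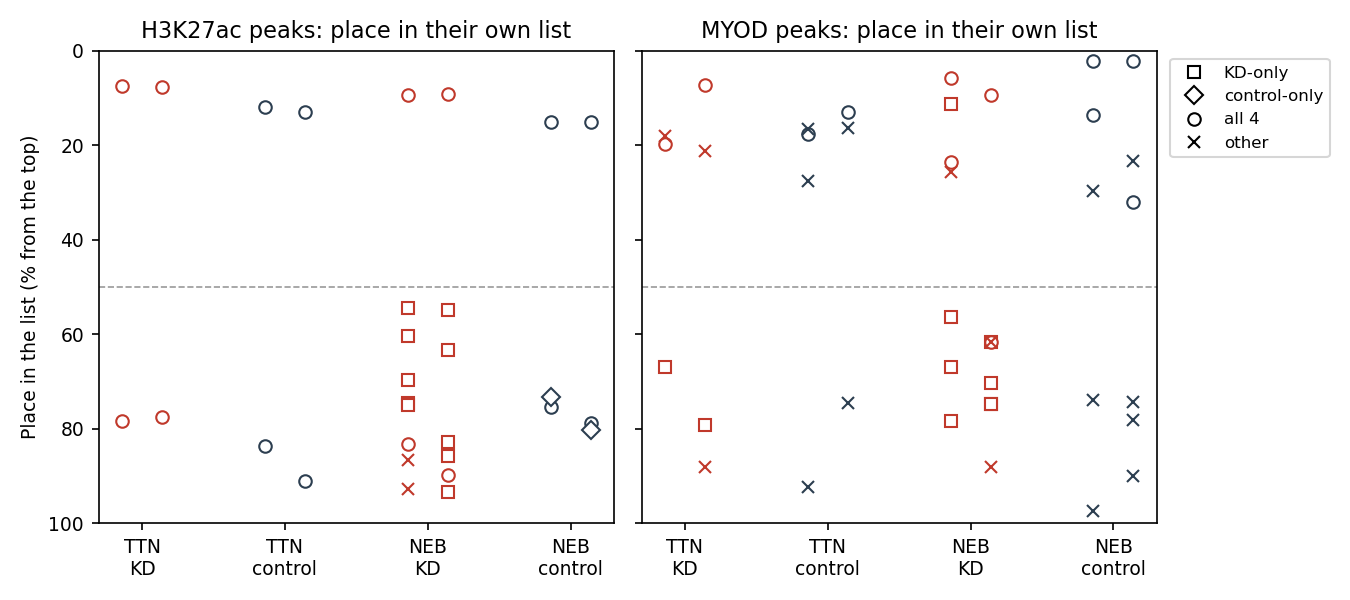
Place of every H3K27ac and MYOD peak of both windows in its own list, in percent from the top (0 is the top, the dashed line is 50%), by locus and group, with replicate 1 left of replicate 2 and the symbol giving the region's class. All KD-only H3K27ac peaks at NEB lie below the line, and the constant peaks near 9% and 15% are those of its widest region.

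Tagged TWIST2 had 9 and 7 peaks at NEB and 4 and 6 at TTN, and 7 of 9 and 4 of 6 merged regions were in both Ty1 libraries (TWIST2 regions), against 50.3% over the genome. The TWIST2 region highest in its lists, at 152619257 to 152619525 in the NEB window, stood at 4.27% and 3.55% from the top and overlapped no peak of the other 3 antibodies. The region at 152416878 to 152417116 stood at 6.16% and 20.5% from the top, and the KD-only MYOD peaks there were centred 75 and 54 bp from its centre. At 152494617 to 152494971, which stood at 72.4% and 67.1%, the KD-only MYOD peaks were centred 8 and 19 bp from the centre of the merged region. Its Ty1 peaks, at 152494733 to 152494971 and 152494617 to 152494847, overlap only in part, so these are not distances to a TWIST2 peak centre. All distances given here are to centres of merged regions, and no values over the genome stand beside them. At the TWIST2 region at 152590374 to 152590613, on the constant MYOD region, the distances were 7.5 and 24.5 bp in KD, against 52.5 and 17.5 bp in control. The region at 152631083 to 152631321 lay on MYOD peaks of KD replicate 2 and control replicate 2, on an H3K27ac peak of KD replicate 1 and on a SMARCA4 peak of control replicate 2. Of 7 TWIST2 regions at NEB, 4 overlapped H3K27ac and 4 MYOD, and 3 had neither, among them the highest and the region at 152293029.

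At TTN only 1 of 4 TWIST2 regions lay on H3K27ac or MYOD. This was the region at 179343915 to 179344202, at 21.0% and 26.4% from the top, whose centre lay 134.5 and 114.5 bp from the KD and 184.5 and 134.5 bp from the control centres of the constant MYOD peaks there. The regions at 179356385, 179379474 and 179417873 had no peak of another antibody. Over the genome 50.3% of TWIST2 regions overlapped an H3K27ac region and 48.1% a MYOD region. The Ty1 libraries come from cells with tagged TWIST2, neither KD nor control, and there was no Ty1 list of untagged cells among those used here.

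SMARCA4 peaks in the 2 windows were never shared between libraries. At TTN there were 1 and 2 peaks in KD, against 0 and 2 in control, and at NEB 1 and 1 in KD, against 0 and 2 in control. All 9 were found in 1 library each, whereas 25.5% of the 48009 SMARCA4 regions of the genome were in at least 2 libraries, 1.11% in all 4, 1.91% KD-only and 6.68% control-only. The immunoprecipitation efficiency in the file headers was 0.65% and 0.7% in KD and 0.88% and 1.83% in control, and its part in these counts was not tested. Per the deposited values, their fold over input was 4.67 to 33.8 in KD and 4.45 to 8.34 in control, and their HOMER score 14 to 19 in KD and 24 to 50 in control replicate 2. The control peaks, all from control replicate 2, lay on H3K27ac. Those at 179343404 and 179344980 lay in the wide TTN region and that at 152590302 in the widest NEB region. The peak at 152631064 lay on an H3K27ac peak listed in KD replicate 1 alone. Of the KD peaks, the NEB peak of KD replicate 2 at 152573262 to 152573406 lay inside the KD-only MYOD and H3K27ac regions there. The NEB peak of KD replicate 1, at 152590944, lay on the MYOD region at 152590917, inside the widest NEB H3K27ac region. The 3 TTN peaks of the KD libraries lay on no H3K27ac, MYOD or TWIST2 region. They stood at 179493437 in KD replicate 1 and at 179593248 and 179597733 in KD replicate 2. SMARCA4 regions on H3K27ac were thus 4 of 4 at NEB and 2 of 5 at TTN. No such share over all SMARCA4 regions of the genome is given, so these overlaps have no background. Control replicate 1, with 46690705 tags, had no SMARCA4 peak in either window, and the counts of the groups overlapped at both genes (exact permutation p = 1, n = 2 each).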

How the data were processed

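Each of the 14 lists came from 1 ChIP-seq library of RD cells, and 10 input samples of the 24 were not used. Build hg19 (GRCh37) and the tools HOMER 4.4, bedtools 2.29.2, Bowtie2 2.3.4.3 and SAMtools 0.1.19 are given per the submitters' processing notes. The deposited H3K27ac, MYOD and Ty1 lists hold coordinates only. Per the file headers, HOMER called the SMARCA4 peaks at a false discovery rate of 0.001 and at least 4-fold over input and over the 10000 bp around. Their deposited columns hold a tag signal scaled to a fixed library total (not printed), a HOMER score and the fold ratio over input.

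The members, windows, classes and comparisons were chosen with earlier results of these data known. Regions were merged at an overlap of at least 1 bp, and peaks were ranked by list order (by score for SMARCA4). Regions named individually were all KD-only and control-only ones, up to 6 constant ones by width or list place, up to 6 TWIST2 regions by list place and all SMARCA4 regions. Other regions were named after their values were seen. Groups were compared by exact two-sided permutation of library values, and regions by counts. Comparisons of the loci with each other, list places by class and promoter strings were added after the data were seen. Merging was tested on simulated data. Promoters are from RefSeq GRCh38.p14, and both symbols matched. Peaks lay beyond the last gene of that assembly on 14 of 24 chromosomes, so its positions were not used for peaks. No genome of build hg19 was used, so no peak sequence is shown. Python 3.11.15, numpy 2.4.6, pandas 2.3.3, scipy 1.17.1 and matplotlib 3.10.9 were used.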

Additional observations from a re-analysis of the deposited data

How the results depend on the processing

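With 2 libraries a group no result could pass 0.05, so only directions and counts are compared. At NEB, the H3K27ac difference in peak number (5 more in KD) was 0 in the top 50% of each list, and KD-only and control-only H3K27ac regions were then 0 and 0. Lists of the same length gave a difference of 0.5 peaks, with 2 KD-only and 2 control-only regions. The MYOD difference at NEB (3 more in KD) became -0.5 and its KD-only regions 0 in the top 50%, and merging within 500 bp gave 1 control-only MYOD region. At TTN, the H3K27ac difference of 0 became -0.14 per 10000 list peaks and -1 with the same number of peaks, which also gave 1 control-only region. Covered bases there turned to -236 with the same number and to -4.61 per 1000000 covered bases. MYOD at TTN moved to -0.088 per 10000 and, in the top 50%, to -0.5 with 0 KD-only regions. SMARCA4 at TTN (0.5 more in KD) became -0.5 in the top 50% and 0 with the same number, and at NEB 0.34 per 10000 and 1 with the same number. TWIST2 regions numbered 4 at NEB and 1 at TTN in the top 50%. The cause of these changes was not tested. The other settings run kept the direction, or a count within 1.5 times.

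Leaving out each library gave, at NEB, H3K27ac differences of 4 to 6 peaks, 4942.5 to 7818.5 covered bases and 175.5 to 277.5 bp of constant-region width, with 5 to 7 KD-only and 1 control-only regions. At TTN these were 0 peaks, 569 to 875 bases, 284.5 to 437.5 bp and 0 and 0 regions. MYOD gave 2.5 to 3.5 peaks, 4 to 5 KD-only and 0 to 2 control-only regions at NEB, and -0.5 to 0.5, 1 to 3 and 0 to 2 at TTN. SMARCA4 gave -1 to 1 peaks, 0 to 1 KD-only and 0 to 2 control-only regions at NEB, and -0.5 (without control replicate 1) to 1.5, 0 to 2 and 0 to 2 at TTN. The highest control-only MYOD counts were without control replicate 2 at both genes, and the highest control-only SMARCA4 counts without control replicate 1. TWIST2 regions ranged from 7 to 9 at NEB and 4 to 6 at TTN, as 1 library then defines them.

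The replicate block left every difference as it was (5 H3K27ac and 3 MYOD peaks at NEB), with a smallest sign-flip p of 0.5. Over constant regions, the replicate differences in KD and in control were not correlated (-0.00057 for H3K27ac, 0.0036 for MYOD and -0.013 for SMARCA4). This correlation cannot see a shift of a whole list. In both groups replicate 1 had the longer list for H3K27ac and MYOD, and replicate 2 for SMARCA4. The numbers were not taken as pairs, and whether the libraries are paired is not settled. Unknown depth limits what an unlisted peak means.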
